A study of Mus musculus with 12 samples.

Results

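The 9 genes of hepatocyte nuclear receptors followed here in RNA-seq of mouse livers were *Hnf4a*, *Rxra*, *Nr1h4*, *Nr0b2*, *Nr5a2*, *Nr1h3*, *Ppara*, *Pparg* and *Esr1*. They were chosen by symbol, with earlier results of these data known, and make up 9 of the 24532 genes listed in the expression table. All 9 passed the filter on low counts, with 236 to 67704 reads per gene and library. The study asked what hepatocyte loss of the aryl hydrocarbon receptor (AhR) changes in the liver of mice drinking alcohol. It comprised 12 livers of male mice on a C57BL/6 background, 3 in each of 4 groups, and each mouse was 10 to 12 weeks old when its liquid diet began. Group WT+con received the isocaloric control diet and group WT+EtOH the Lieber-DeCarli diet for 5 weeks, in which ethanol supplied 5% of the volume and 36% of the energy, and groups Ahr HKO+con and Ahr HKO+EtOH were fed in the same way. Ahr HKO mice were *Ahr* fl/fl with *Alb-Cre*, a Cre driven by the albumin promoter, so that exon 2 of *Ahr* is targeted in hepatocytes. The WT mice were littermates without Cre and carried the same floxed alleles.

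Nuclear receptors are transcription factors that bind DNA through zinc fingers and, in most cases, change their activity when a small lipophilic molecule enters their ligand pocket. HNF4A maintains the hepatocyte program, RXRA is the shared partner of most metabolic receptors, and FXR (*Nr1h4*), SHP (*Nr0b2*) and LRH-1 (*Nr5a2*) form the circuit that keeps bile acid synthesis in check. LXRA (*Nr1h3*) senses oxysterols, PPARA drives fatty acid oxidation in fasting, PPARG drives lipid storage and is low in normal hepatocytes, and the estrogen receptor ERA (*Esr1*) binds estradiol.

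Library depth was 46306518 to 74336255 reads on genes. *Alb*, the defining hepatocyte transcript, was read at 47282 to 90568 CPM (counts scaled to library size, here after TMM) in the 12 livers, and none of the 8 hepatocyte markers was at 0. The libraries labelled Ahr HKO held more *Ahr* reads than WT on the control diet, at 41.3 to 65.5 CPM against 16.6 to 20.1 CPM (log2 FC 1.63, SE 0.188, edgeR adjusted *P* = 0.00164). Counts per gene do not separate exon 2, so this value does not check the deletion, and the genotype below is that of the label. All levels are from whole liver, in which fewer cells of a type and less RNA per cell cannot be told apart.

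The order of the receptor genes was read on FPKM, which accounts for transcript length. In WT+con, *Hnf4a* was at the top with 123 ± 11.1 FPKM (SD, n = 3), followed by *Rxra* with 94.5 ± 2.64 FPKM and *Nr1h3* with 55.7 ± 1.19 FPKM. Those ranges did not overlap. *Nr1h4* (40.8 ± 5.91 FPKM), *Ppara* (34.6 ± 4.09 FPKM) and *Nr0b2* (16 ± 13.8 FPKM) came next and each overlapped with its neighbor, as did *Nr0b2* with *Nr5a2* (7.24 ± 3.16 FPKM). *Pparg* at 3.23 ± 0.94 FPKM and *Esr1* at 1.82 ± 0.144 FPKM were lowest, without overlap. *Hnf4a* and *Rxra* held the top ranks in all 4 groups, whereas *Nr0b2* was below *Ppara* in WT+con and next after *Rxra* in Ahr HKO+EtOH (53.8 ± 5.49 FPKM), where its range overlapped that of *Nr1h3*. In the livers labelled Ahr HKO, *Pparg* and *Esr1* overlapped each other.

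**Figure D1:**
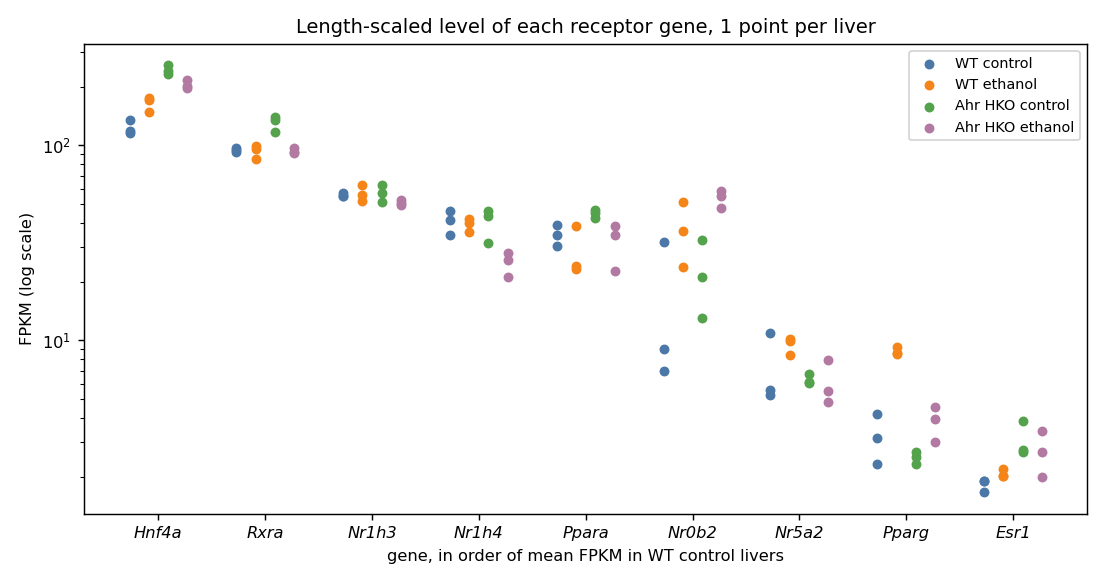
FPKM of each receptor gene on a log axis, with 1 point per liver, 4 groups of 3 livers in color and genes ordered by their WT+con mean. *Hnf4a* and *Rxra* stay on top in every group, and the points of *Nr0b2* spread from 6.96 FPKM in a WT+con liver to 58.5 FPKM in an Ahr HKO+EtOH liver.

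Between the genotypes on the control diet, 3 of the 9 receptor genes were called at an edgeR adjusted *P* value under 0.05, and all 3 were higher in Ahr HKO. Of all 14038 genes tested, 29.6% were called in this comparison and 15.4% were called higher. The median log2 FC of the 9 genes was 0.35, and −0.00 over all genes. For ethanol against the control diet, 1 receptor gene was called in WT (9.47% of all genes) and 4 in Ahr HKO (30.8% of all genes). Between the genotypes on the ethanol diet 1 was called, where 1.1% of all genes were. Groups that did not overlap on CPM were counted as well. They numbered 4 of the 9 receptor genes between the genotypes on the control diet (47.3% of all genes) and 5 on the ethanol diet (27.9%), and with ethanol 4 in WT (32.9%) and 5 in Ahr HKO (49.8%). The 5 on the ethanol diet were *Hnf4a*, *Rxra* and *Nr0b2*, higher in Ahr HKO, and *Nr1h4* and *Pparg*, lower. On FPKM the groups of *Rxra* (84.7 to 99.4 in WT+EtOH, 91.5 to 97.0 in Ahr HKO+EtOH) and *Nr0b2* (23.9 to 51.1, 47.8 to 58.5) overlapped. Without each liver in turn, log2 FCs on that diet were 0.22 to 0.28 for *Rxra*, 0.56 to 1.08 for *Nr0b2* and −0.51 to −0.32 for *Nr1h4*, with no call. The edgeR interaction of genotype and diet, which asks whether the diet effect differs between the genotypes, called 0 of the 9, while 2 had an unadjusted *P* value under 0.05. Of all genes, 22.3% were called for the interaction and 36.4% had such an unadjusted *P*. DESeq2 called 1 of the 9 for the interaction, limma on quantile-normalized FPKM 1 and limma without that normalization 3. These comparisons share libraries and are not independent of each other.

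**Figure D2:**
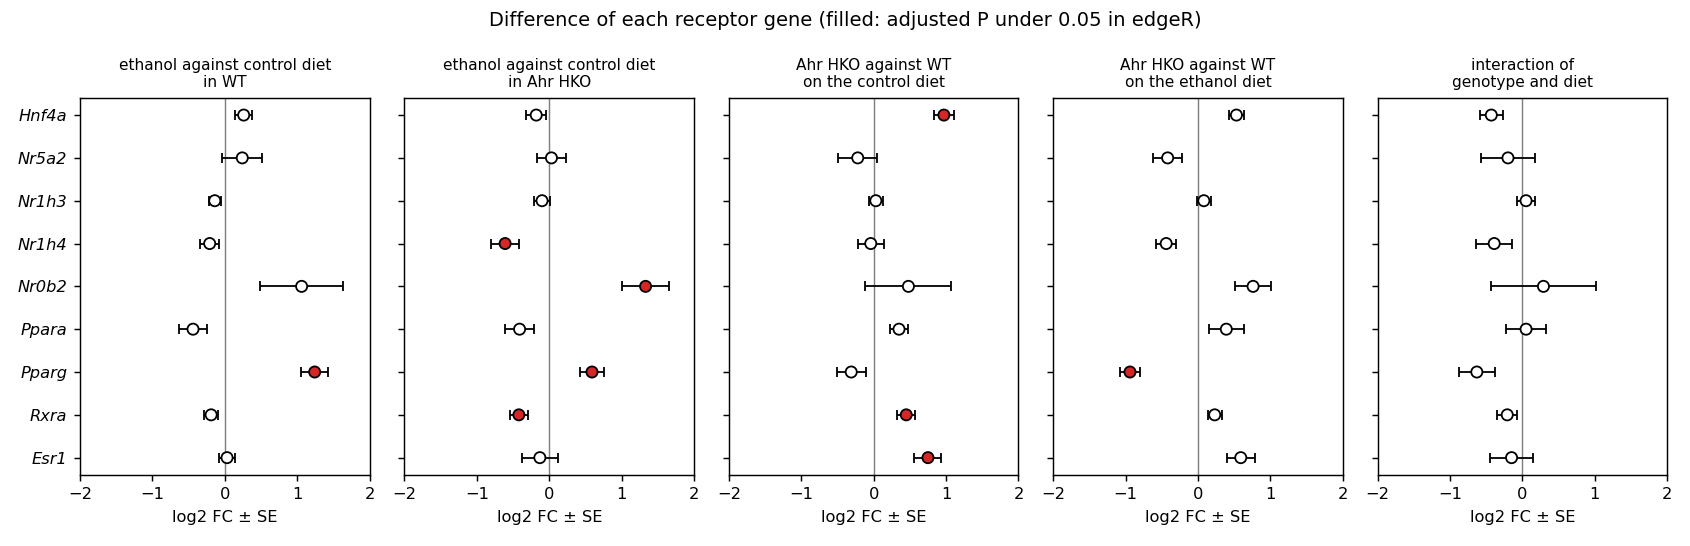
Log2 FC with its SE for the 9 receptor genes, 1 panel for each of the 4 pairs of groups and for the interaction, with filled points at an edgeR adjusted *P* value under 0.05. The filled points are 1, 4, 3, 1 and 0 from left to right, and *Pparg* is filled in 3 of the panels.

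*Hnf4a* (chromosome 2, 163506811 to 163572907, GRCm38), which keeps genes of lipoprotein export, clotting and gluconeogenesis active, was higher in both groups of Ahr HKO livers. It measured 626, 553 and 529 CPM in WT+con, 649, 661 and 723 CPM in WT+EtOH, 1096, 1003 and 1236 CPM in Ahr HKO+con, and 959.7, 1015 and 965 CPM in Ahr HKO+EtOH. Every Ahr HKO liver was above every WT liver. On the control diet the difference was a 1.96-fold increase (log2 FC 0.97, SE 0.139, edgeR adjusted *P* = 0.00331), and the call held without any single liver, with adjusted *P* values of 0.00518 to 0.0201. On the ethanol diet the log2 FC was 0.53 (SE 0.103, edgeR adjusted *P* = 0.0638), with groups that did not overlap but no call, while DESeq2 and the fit of all 12 libraries called it (adjusted *P* = 1.27e-06 and 0.0313). With ethanol the log2 FC was 0.26 in WT (edgeR adjusted *P* = 0.196) and −0.18 in Ahr HKO (adjusted *P* = 0.341), and the interaction was −0.43 (SE 0.161, edgeR adjusted *P* = 0.0753). Without Ahr HKO+con liver 2 that interaction was called (log2 −0.50, adjusted *P* = 0.0473), as it was in 4 of 8 other settings, by DESeq2 and limma (adjusted *P* of 0.00546 to 0.0214). *Hnf4a* has a distal promoter (P2) and the promoter used in adult liver (P1), and the counts per gene do not separate their transcripts. The 250 bases before the P1 start (plus strand, chr2:163546905-163547154, RefSeq on GRCm38.p6) are shown because *Hnf4a* had the smallest adjusted *P* value of the receptor genes.
Hnf4a P1: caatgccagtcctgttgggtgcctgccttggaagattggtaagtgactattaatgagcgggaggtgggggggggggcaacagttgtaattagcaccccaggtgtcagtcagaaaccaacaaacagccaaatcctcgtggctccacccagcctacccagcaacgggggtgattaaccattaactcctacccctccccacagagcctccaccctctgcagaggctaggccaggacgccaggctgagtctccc
The sequence was searched on both strands for GCGTG, the core of the AhR response element, for AGGTCA, the hexamer bound by most nuclear receptors, and for TCAAGG, the core bound by LRH-1. None of these letters occurred in this window, and capitals in the sequences shown mark such matches.

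Of the 14 HNF4A target genes listed, 3 rose and 3 fell in Ahr HKO on the control diet, with a median log2 FC of 0.03 beside *Hnf4a* at 0.97. In this comparison 15.4% of all genes were called higher and 14.2% lower. *Cyp8b1*, the sterol 12-alpha-hydroxylase, fell by 2.54 on the log2 scale (edgeR adjusted *P* = 0.00171), and *F11*, coagulation factor XI, fell by 1.08 (adjusted *P* = 0.00248). *Apoa4*, an apolipoprotein of lipid export, rose by 1.26 (edgeR adjusted *P* = 0.0101). With ethanol 2 rose and 1 fell in WT (9.47% of all genes were called), and 3 rose and 1 fell in Ahr HKO (30.8% of all genes). *Apoa4* went in opposite directions, with a log2 FC of 2.29 in WT (adjusted *P* = 0.0189) and −1.10 in Ahr HKO (edgeR adjusted *P* = 0.00169). *Pck1*, the rate-limiting enzyme of gluconeogenesis, rose in both, by 1.53 in WT (adjusted *P* = 0.00403) and by 1.33 in Ahr HKO (adjusted *P* = 0.0131). On the ethanol diet *Apoa4* was the only listed target called between genotypes (log2 FC −2.11, edgeR adjusted *P* = 0.0429), where 1.1% of all genes were called.

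*Rxra* (chromosome 2, 27676445 to 27763319), the gene of the obligate dimer partner of FXR, LXR and the PPARs, was highest in Ahr HKO+con. It measured 509, 532 and 532 CPM in WT+con, 443, 437 and 485 CPM in WT+EtOH, 645, 721 and 779 CPM in Ahr HKO+con, and 522, 542 and 539.5 CPM in Ahr HKO+EtOH. The 3 livers of Ahr HKO+con stood above all 9 others. On the control diet *Rxra* was 1.37-fold higher in Ahr HKO (log2 FC 0.45, SE 0.121, edgeR adjusted *P* = 0.0286). In Ahr HKO it fell by 0.42 with ethanol (SE 0.123, adjusted *P* = 0.0396), and in WT the log2 FC was −0.19 (SE 0.0973, edgeR adjusted *P* = 0.261). The WT groups did not overlap on CPM but did on FPKM (92.1 to 97.3 in WT+con, 84.7 to 99.4 in WT+EtOH). The call between genotypes was lost without any 1 WT+con liver or Ahr HKO+con liver 2 (adjusted *P* up to 0.0889), and the call for ethanol in Ahr HKO was kept only without Ahr HKO+con liver 1 (adjusted *P* = 0.0489, against up to 0.110 without another liver).

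In the bile acid circuit, *Nr0b2* was higher with ethanol and *Nr1h4* lower in Ahr HKO, while *Nr5a2* was not called in any of the 4 pairs. *Nr1h4* (chromosome 10, 89454234 to 89533645) encodes FXR, the receptor that bile acids bind. It measured 100.2, 76.4 and 90.1 CPM in WT+con, 82.5, 65.2 and 81.3 CPM in WT+EtOH, 67.0, 88.2 and 104 CPM in Ahr HKO+con, and 62.9, 46.8 and 59.5 CPM in Ahr HKO+EtOH. All 3 Ahr HKO+EtOH livers lay below the other 9. In Ahr HKO ethanol lowered *Nr1h4* 1.53-fold (log2 FC −0.61, SE 0.188, edgeR adjusted *P* = 0.0453), and in WT the log2 FC was −0.21 (SE 0.134, edgeR adjusted *P* = 0.369). The call was kept only without Ahr HKO+con liver 1 (adjusted *P* = 0.0259), and leaving out another liver gave adjusted *P* values of up to 0.129.

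*Nr0b2* (chromosome 4, 133553376 to 133556686) encodes SHP, a receptor without a DNA-binding domain that FXR induces and that represses bile acid synthesis. It measured 43.0, 12.5 and 9.40 CPM in WT+con, 30.7, 40.9 and 62.2 CPM in WT+EtOH, 43.8, 16.5 and 29.7 CPM in Ahr HKO+con, and 66.6, 80.8 and 79.8 CPM in Ahr HKO+EtOH. The Ahr HKO+EtOH livers were above all others, and WT+con liver 1 stood well above the others of its group. With ethanol *Nr0b2* rose 2.52-fold in Ahr HKO (log2 FC 1.33, SE 0.324, edgeR adjusted *P* = 0.0214). In WT the log2 FC was 1.06 (SE 0.570, edgeR adjusted *P* = 0.288), and without WT+con liver 1 it was 2.04 (SE 0.330, edgeR adjusted *P* = 0.0352). The interaction was 0.29 (SE 0.723, edgeR adjusted *P* = 0.811), and −0.69 without WT+con liver 1. In Ahr HKO the call was lost without Ahr HKO+con liver 3, Ahr HKO+EtOH liver 2 or Ahr HKO+EtOH liver 3 (adjusted *P* = 0.0524, 0.0554 and 0.0584). The 250 bases before the start of *Nr0b2* (plus strand, chr4:133553126-133553375) are shown because this was the only one of 16 receptor gene windows with TCAAGG.
Nr0b2: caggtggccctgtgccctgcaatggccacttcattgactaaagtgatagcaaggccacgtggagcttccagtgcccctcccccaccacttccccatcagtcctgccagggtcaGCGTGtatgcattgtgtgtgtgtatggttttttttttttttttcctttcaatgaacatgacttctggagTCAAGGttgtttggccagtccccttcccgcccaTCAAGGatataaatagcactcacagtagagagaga
It held TCAAGG at 68 to 63 and at 35 to 30 bases before the start, and GCGTG at 137 to 133 bases before it. Among all 32851 mouse promoter windows of this length, 12.5% held TCAAGG, 28.2% GCGTG and 14% AGGTCA.

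*Nr5a2* (chromosome 1, 136842562 to 136960448) encodes LRH-1, the activator of bile acid synthesis genes that SHP blocks. It measured 42.7, 21.0 and 21.6 CPM in WT+con, 37.8, 32.3 and 29.6 CPM in WT+EtOH, 23.6, 22.4 and 27.1 CPM in Ahr HKO+con, and 22.1, 19.4 and 33.2 CPM in Ahr HKO+EtOH. WT+con liver 1, the high *Nr0b2* library of its group, was also the highest *Nr5a2* library. The groups overlapped in each of the 4 pairs, and log2 FCs ran from −0.42 to 0.24 with SEs of 0.203 to 0.277. The edgeR adjusted *P* values were 0.290 to 0.932.

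*Cyp7a1*, *Cyp8b1* and *Slc10a1*, the genes listed as repressed through SHP, were all lower in Ahr HKO on the control diet, where *Nr0b2* was not called (log2 FC 0.48, SE 0.593, edgeR adjusted *P* = 0.586). *Cyp7a1*, the rate-limiting enzyme of bile acid synthesis, was read at 36.5, 83.4 and 217 CPM in WT+con and at 5.62, 9.59 and 1.43 CPM in Ahr HKO+con (log2 FC −4.33, SE 0.855, edgeR adjusted *P* = 0.00974). *Slc10a1*, the bile acid uptake carrier, fell by 1.03 (adjusted *P* = 0.00571). With ethanol in Ahr HKO, where *Nr0b2* rose, *Cyp8b1* rose by 1.78 (edgeR adjusted *P* = 0.00903) and *Slc10a1* by 0.97 (adjusted *P* = 0.0216), while *Cyp7a1* had a log2 FC of 1.28 (SE 0.718, edgeR adjusted *P* = 0.210). With ethanol in WT *Cyp7a1* had a log2 FC of −2.08 (SE 0.734, edgeR adjusted *P* = 0.126), *Cyp8b1* of −0.94 (adjusted *P* = 0.234) and *Slc10a1* of 0.10 (adjusted *P* = 0.701). Of the 7 FXR targets tested, 1 rose in WT with ethanol, *Sdc1* (syndecan, log2 FC 0.69, edgeR adjusted *P* = 0.0496), and 1 rose in Ahr HKO, *Abcb11* (the bile salt export pump, 0.63, adjusted *P* = 0.0331). With ethanol 9.47% of all genes were called in WT and 30.8% in Ahr HKO. On the control diet *Sdc1* was higher in Ahr HKO (0.80, adjusted *P* = 0.0103) and *Osgin1*, an oxidative stress response gene, was lower (−1.22, adjusted *P* = 0.0192). That comparison called 29.6% of all genes. Of the 6 LRH-1 targets, which include *Cyp7a1* and *Cyp8b1*, 2 rose and 1 fell with ethanol in Ahr HKO, the latter the HDL receptor *Scarb1* (log2 FC −0.86, edgeR adjusted *P* = 0.00846), which was higher in Ahr HKO on the control diet (0.51, adjusted *P* = 0.0339).

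*Nr1h3* (chromosome 2, 91184061 to 91202829), the oxysterol receptor LXRA, varied least. It measured 106, 113 and 113 CPM in WT+con, 95.6, 104 and 98.7 CPM in WT+EtOH, 123, 107 and 107 CPM in Ahr HKO+con, and 99.8, 106 and 108 CPM in Ahr HKO+EtOH. All 12 livers thus lay between 95.6 and 123 CPM. The WT groups did not overlap on CPM, with a log2 FC of −0.14 (SE 0.0860, edgeR adjusted *P* = 0.353), but did on FPKM (54.9 to 57.1 in WT+con, 52.1 to 62.3 in WT+EtOH). The other 3 pairs overlapped on CPM, at log2 FCs of −0.10, 0.03 and 0.08 with SEs of 0.0923 to 0.108. The largest overlap of a single exon of *Nr1h3* with an exon of *Gm13783*, on the same strand, was 34 bases.

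While *Nr1h3* was not called, 6 of 11 LXR target genes were called in Ahr HKO on the control diet, 2 higher and 4 lower. Of all genes, 29.6% were called there, 15.4% higher and 14.2% lower. *Srebf1*, the regulator of fatty acid synthesis, fell by 2.04 (SE 0.134, edgeR adjusted *P* = 0.000603), and the sterol exporters *Abcg8* and *Abcg5* fell by 1.64 (adjusted *P* = 0.00163) and 1.06 (adjusted *P* = 0.00303). The phospholipid acyltransferase *Lpcat3* fell by 0.94 (adjusted *P* = 0.00159). With ethanol in Ahr HKO 4 rose and 3 fell, where 30.8% of all genes were called. *Abcg8* rose by 1.33 (edgeR adjusted *P* = 0.00285), *Abcg5* by 1.08 (adjusted *P* = 0.00471) and *Lpcat3* by 0.72 (adjusted *P* = 0.00791), whereas the cholesterol exporter *Abca1* fell by 1.41 (adjusted *P* = 0.00471). In WT, where 9.47% of all genes were called, 1 rose and 2 fell, among them *Srebf1* (log2 FC −1.26, edgeR adjusted *P* = 0.0245) and *Abca1* (−0.46, adjusted *P* = 0.0435).

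*Ppara* (chromosome 15, 85734910 to 85806851), the fatty acid receptor of fasting, had lower means with ethanol in both genotypes without a call. It measured 304, 275 and 239 CPM in WT+con, 173, 252 and 169 CPM in WT+EtOH, 349, 343 and 347 CPM in Ahr HKO+con, and 185, 308 and 288 CPM in Ahr HKO+EtOH. The Ahr HKO+con livers were above all others and differed little among themselves, and in each ethanol group 1 liver stood apart. The log2 FC with ethanol was −0.44 in WT (SE 0.187, edgeR adjusted *P* = 0.184) and −0.41 in Ahr HKO (SE 0.195, edgeR adjusted *P* = 0.147). Without WT+EtOH liver 2 the WT value was −0.67 (adjusted *P* = 0.0458), which edgeR called. On the control diet the groups of the genotypes did not overlap, at a log2 FC of 0.35 (SE 0.119, edgeR adjusted *P* = 0.0640), and 4 of 9 other settings called it, DESeq2 with an adjusted *P* value of 0.0199 and limma with 0.0353 to 0.0400.

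Of the 20 PPARA targets, 4 rose with ethanol in WT, at a median log2 FC of 0.41 against 0.03 for all genes, of which 9.47% were called. *Pdk4*, the kinase that shuts off pyruvate oxidation, rose 5.58-fold (edgeR adjusted *P* = 0.00297). *Cyp4a14*, a fatty acid omega-hydroxylase, had a log2 FC of 4.35 (edgeR adjusted *P* = 0.0249), and the lipase inhibitor *Angptl4* and the thioesterase *Acot2* rose by 0.75 (adjusted *P* = 0.0152) and 1.77 (adjusted *P* = 0.0475). In Ahr HKO 5 rose and 2 fell with ethanol, where 30.8% of all genes were called. *Acot1* and *Acaa1b*, enzymes of acyl-CoA hydrolysis and peroxisomal oxidation, rose by 1.83 (edgeR adjusted *P* = 0.00853) and 1.20 (adjusted *P* = 0.00723). *Plin2*, the lipid droplet coat protein, fell by 1.21 (edgeR adjusted *P* = 0.00323) and *Cpt1a*, the gate of mitochondrial oxidation, by 0.99 (adjusted *P* = 0.00722). On the control diet 4 were higher in Ahr HKO, where 15.4% of all genes were called higher, with *Angptl4* at 1.20 (adjusted *P* = 0.00254) and *Plin2* at 1.07 (edgeR adjusted *P* = 0.0101). *Cyp4a14* and *Acot1* have near-identical relatives that can share reads, and their values are uncertain.

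*Pparg* (chromosome 6, 115360879 to 115490404), the receptor of fat storage, rose with ethanol in both genotypes and was highest in WT+EtOH. It measured 5.15, 8.41 and 6.79 CPM in WT+con, 16.5, 14.4 and 16.7 CPM in WT+EtOH, 5.78, 4.81 and 5.79 CPM in Ahr HKO+con, and 9.16, 8.70 and 6.83 CPM in Ahr HKO+EtOH. The WT+EtOH livers lay above the other 9 livers. In WT the increase was 2.36-fold (log2 FC 1.24, SE 0.182, edgeR adjusted *P* = 0.0109), and the call held without any single liver (adjusted *P* of 0.0202 to 0.0489) and in all 9 other settings tried. In Ahr HKO the increase was 1.51-fold (log2 FC 0.59, SE 0.163, edgeR adjusted *P* = 0.0318), which was kept only without Ahr HKO+con liver 3 or Ahr HKO+EtOH liver 3 and otherwise reached adjusted *P* values of up to 0.0889. On the ethanol diet *Pparg* was 1.92-fold lower in Ahr HKO than in WT (log2 FC −0.94, SE 0.140, edgeR adjusted *P* = 0.0387). That call was lost without each liver in turn, at adjusted *P* values of 0.0584 to 0.130 and log2 FCs of −1.02 to −0.83. The interaction was −0.63 (SE 0.250, edgeR adjusted *P* = 0.0912), and −0.82 without WT+con liver 2 (adjusted *P* = 0.0391). On the control diet the log2 FC between the genotypes was −0.31 (SE 0.200, edgeR adjusted *P* = 0.282).

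*Pparg* starts at several promoters, which yield the widely expressed isoform 1 and the fat-cell isoform 2, and the counts per gene combine them. The 250 bases before the first of the starts in the RefSeq promoter table (plus strand, chr6:115360894-115361143), which lies downstream of the annotated gene start and so inside the gene, and before the start of isoform 2 (plus strand, chr6:115421816-115422065) are shown because *Pparg* was the receptor gene called in the most pairs.
Pparg first listed start: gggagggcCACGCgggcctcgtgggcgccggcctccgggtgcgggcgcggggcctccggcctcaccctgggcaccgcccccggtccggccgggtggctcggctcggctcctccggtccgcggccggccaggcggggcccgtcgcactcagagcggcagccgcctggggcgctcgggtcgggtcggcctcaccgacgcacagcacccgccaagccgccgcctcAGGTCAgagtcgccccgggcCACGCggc
Pparg isoform 2: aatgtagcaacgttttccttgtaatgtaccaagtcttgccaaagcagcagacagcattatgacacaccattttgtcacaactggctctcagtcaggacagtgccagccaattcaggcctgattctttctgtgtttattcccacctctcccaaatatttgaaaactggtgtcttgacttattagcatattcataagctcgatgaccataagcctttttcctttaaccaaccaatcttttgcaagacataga
The first window held GCGTG, read on the minus strand as CACGC, at 242 to 238 and at 8 to 4 bases before the start, and AGGTCA at 28 to 23 bases before it. The isoform 2 window held none of the 3 searched motifs. Over all 9 receptor genes, 4 of 16 windows held GCGTG, 5 held AGGTCA and 1 held TCAAGG. These were 25%, 31.2% and 6.25% of the windows, against 28.2%, 14% and 12.5% of all mouse promoter windows. The windows with a match lay in 4, 4 and 1 of the genes, and the windows of *Nr1h3* share bases with each other.

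Of the 7 PPARG target genes tested, 2 rose with ethanol in WT (9.47% of all genes were called), the fatty acid carrier *Cd36* by 1.94 (edgeR adjusted *P* = 0.00305) and the lipase inhibitor *G0s2* by 1.27 (adjusted *P* = 0.0490). In Ahr HKO on the control diet, where *Pparg* was not called, 4 were higher (15.4% of all genes were called higher). *Fabp4*, the fatty acid carrier of fat cells and macrophages, was read at 6.85, 7.43 and 11.6 CPM in WT+con and at 48.6, 50.4 and 35.5 CPM in Ahr HKO+con (log2 FC 2.38, SE 0.231, edgeR adjusted *P* = 0.00108). *Cidec*, which enlarges lipid droplets, was read at 1.40, 2.23 and 1.29 CPM and at 11.9, 30.2 and 33.0 CPM (log2 FC 3.93, SE 0.435, edgeR adjusted *P* = 0.00156). With ethanol in Ahr HKO, where *Pparg* rose and 30.8% of all genes were called, *Fabp4* fell by 2.32 (edgeR adjusted *P* = 0.00134) and *Cidec* by 2.54 (adjusted *P* = 0.0169).

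**Figure D3:**
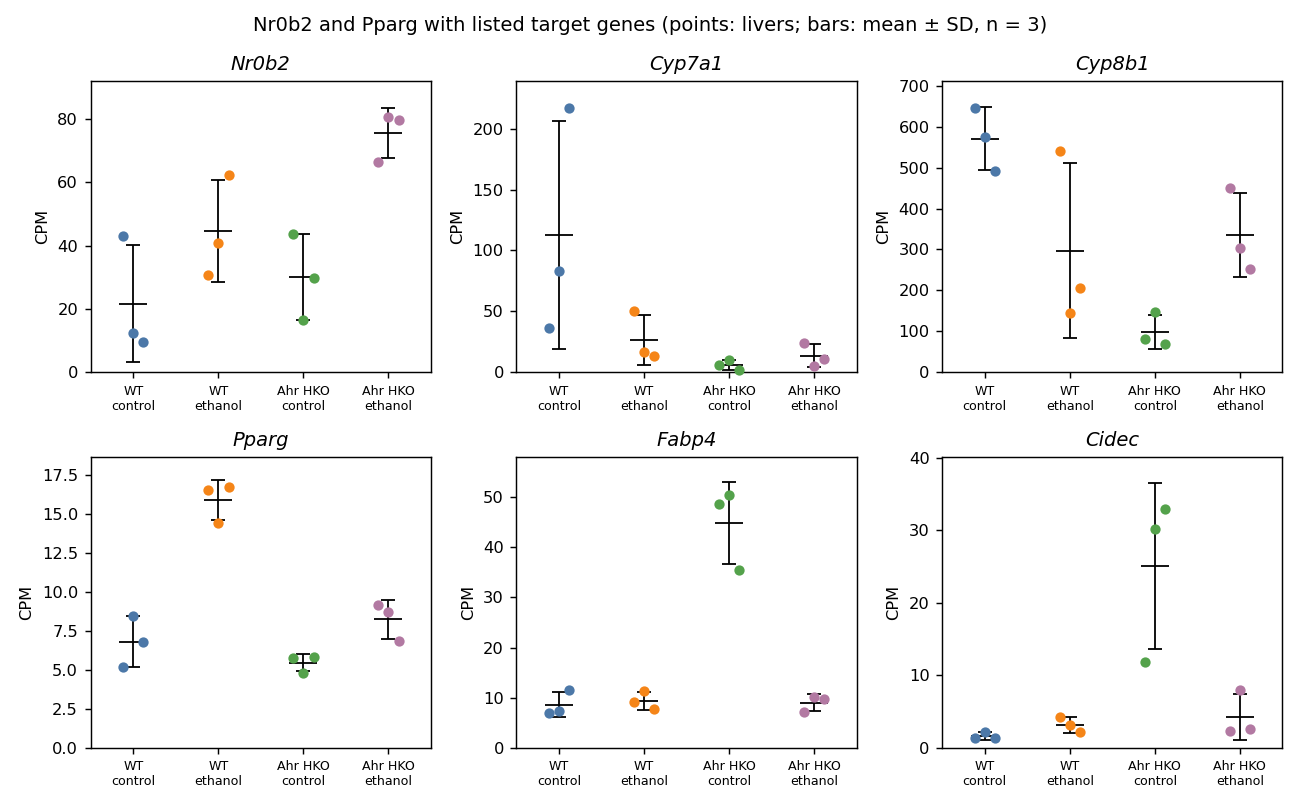
CPM per liver of *Nr0b2* with *Cyp7a1* and *Cyp8b1* (upper row) and of *Pparg* with *Fabp4* and *Cidec* (lower row), with points for livers and bars for mean ± SD of 3 livers. *Pparg* is highest in WT+EtOH (14.4 to 16.7 CPM) whereas *Fabp4* is highest in Ahr HKO+con (35.5 to 50.4 CPM).

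*Esr1* (chromosome 10, 4611989 to 5005633), the estradiol receptor, was higher in Ahr HKO on the control diet. It measured 12.6, 11.2 and 12.6 CPM in WT+con, 13.8, 11.1 and 12 CPM in WT+EtOH, 18, 16.5 and 26.5 CPM in Ahr HKO+con, and 23.4, 13.4 and 18.8 CPM in Ahr HKO+EtOH. The spread was wider in the Ahr HKO livers, and on the ethanol diet the genotypes overlapped. The increase on the control diet was 1.68-fold (log2 FC 0.75, SE 0.186, edgeR adjusted *P* = 0.0218), and it was lost without any 1 of the WT+con livers (adjusted *P* of 0.0582 to 0.0764). On the ethanol diet the log2 FC was 0.59 (SE 0.197, edgeR adjusted *P* = 0.158). With ethanol it was 0.03 in WT (SE 0.115, edgeR adjusted *P* = 0.893) and −0.13 in Ahr HKO (SE 0.251, edgeR adjusted *P* = 0.713).

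**Figure D4:**
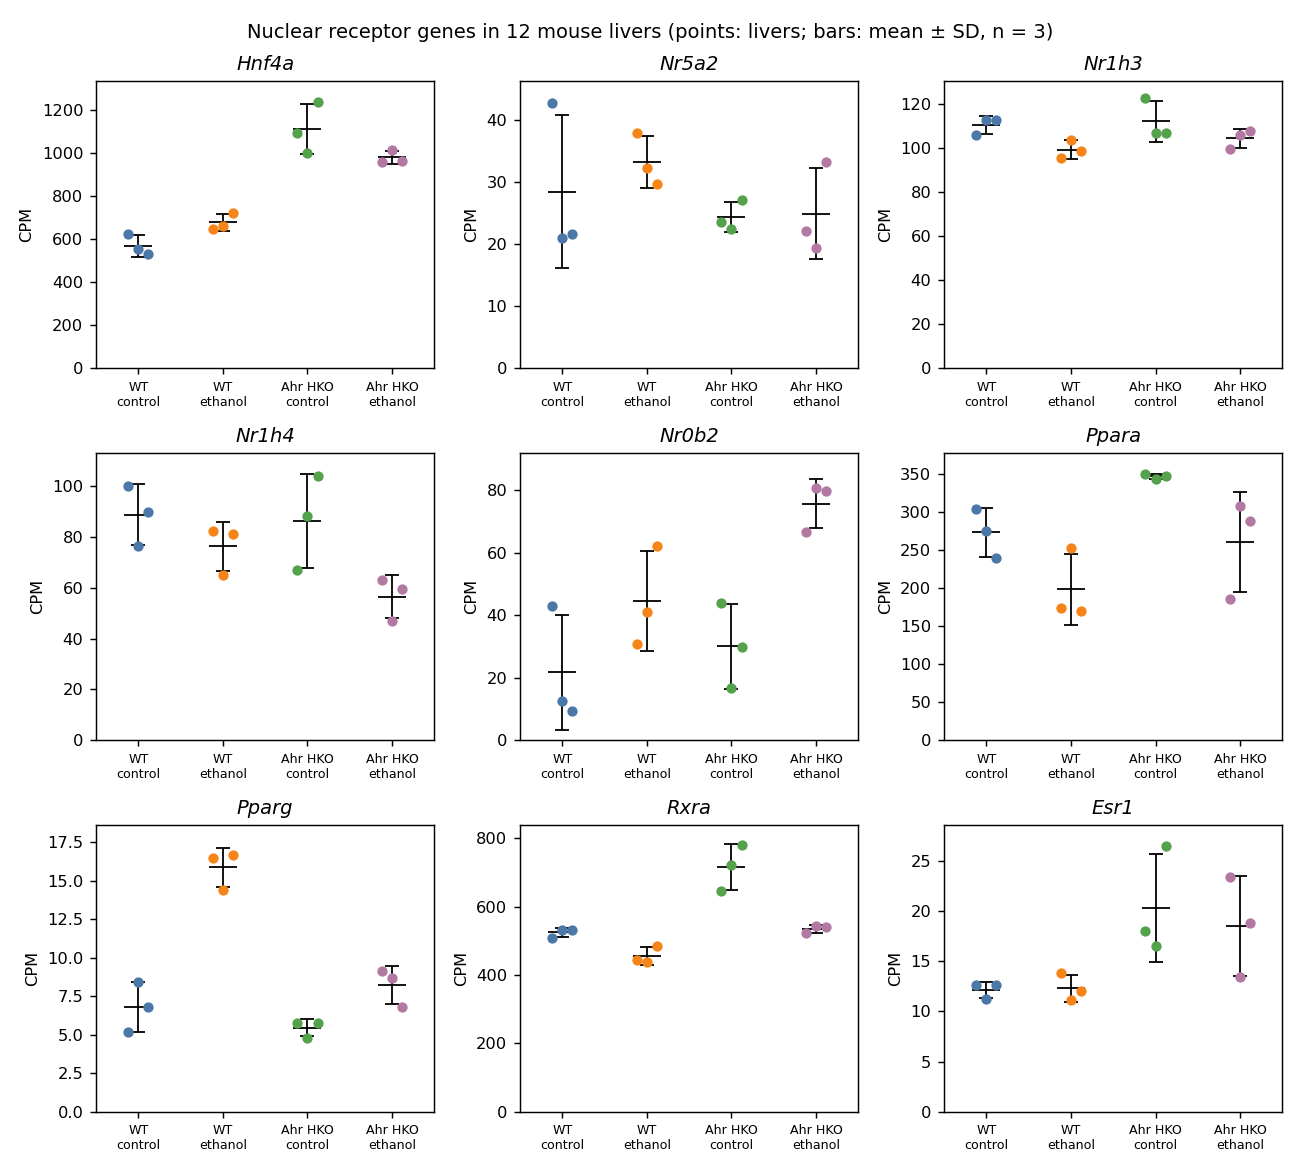
CPM of the 9 receptor genes in the 12 livers, with points for livers and bars for mean ± SD of 3 livers, each axis starting at 0. *Hnf4a* separates the genotypes (529 to 723 CPM in WT against 959.7 to 1236 CPM in Ahr HKO), *Pparg* separates WT+EtOH from the rest, and *Nr1h3* stays between 95.6 and 123 CPM.

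Markers of other liver cells moved with some of these groups. The summed level of 8 Kupffer cell and leukocyte markers was 303 to 756 CPM in Ahr HKO+con and 194 to 239 CPM in Ahr HKO+EtOH, and 7 of the 8 were called lower with ethanol, in the comparison in which *Pparg*, *Nr0b2*, *Rxra* and *Nr1h4* were called. In the WT groups the sums were 333 to 443 CPM and 289 to 766 CPM, with WT+EtOH liver 2 highest. Of 6 endothelial markers, 3 were called lower with ethanol in Ahr HKO (247 to 267 CPM against 167 to 187 CPM). Of all 14038 genes tested, 2237 were called lower with ethanol in Ahr HKO, and 679 were called higher with ethanol in WT. The 7 stellate cell markers summed to 219 to 300.3 CPM in WT+con and 313 to 359 CPM in WT+EtOH, where *Pparg* was highest, and 2 of them, *Lrat* and *Dcn*, were called higher. In Ahr HKO+EtOH, where *Pparg* was lower than in WT+EtOH, they summed to 233 to 276 CPM. In that comparison the log2 FC was below 0 for 7 of 7 stellate, 8 of 8 Kupffer cell and leukocyte and 6 of 6 endothelial markers, at medians of −0.37, −0.89 and −0.44. By edgeR 0 of these markers were called, with 4, 6 and 1 at an unadjusted *P* value under 0.05, and DESeq2 called 3, 3 and 0. The 5 cholangiocyte markers reached 476 CPM in Ahr HKO+con liver 1 and 179.9 CPM in liver 2 and lay between 37.1 and 132 CPM in the other livers. Of these sums *Spp1* alone, the osteopontin gene, made 462 and 166 CPM, while *Krt19*, the keratin that defines cholangiocytes, was at 0.904 to 1.08 CPM in Ahr HKO+con and 0.393 to 1.55 CPM in WT+con. *Epcam* was higher in Ahr HKO+con than in WT+con (log2 FC 2.28, edgeR adjusted *P* = 0.00742), at 2.68 to 7.71 CPM. The fat-cell markers *Lep*, *Plin1* and *Retn* were at 0 in every library and *Adipoq* at no more than 0.0653 CPM. The 5 pancreas markers summed to at most 1.36 CPM. The part of the Kupffer, endothelial, stellate and cholangiocyte markers in the receptor values was not tested.

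Of the 31 other nuclear receptor genes tested, 12 were called in Ahr HKO on the control diet and all 12 were lower, where 14.2% of all genes were called lower. The orphan receptor *Esrra*, a driver of mitochondrial genes, fell by 1.14 (edgeR adjusted *P* = 0.00159), *Nr2f2* by 0.97 (adjusted *P* = 0.00285) and the thyroid hormone receptor *Thra* by 0.93 (adjusted *P* = 0.00291). With ethanol in Ahr HKO 13 were called, all higher, where 14.9% of all genes were called higher, among them *Esrra* (1.17, edgeR adjusted *P* = 0.00149), the clock repressor *Nr1d1* (1.12, adjusted *P* = 0.00365) and *Nr6a1* (1.03, adjusted *P* = 0.00613). In WT ethanol raised 3, the xenobiotic receptors *Nr1i3* (0.74, edgeR adjusted *P* = 0.00802) and *Nr1i2* (0.47, adjusted *P* = 0.0147) and the immediate early gene *Nr4a1* (2.54, adjusted *P* = 0.0295). Between the genotypes on the ethanol diet edgeR called 0 of the 31, with 7 at an unadjusted *P* value under 0.05, and DESeq2 called 3 higher and 3 lower.

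Among 12 coregulators, *Ppargc1a*, the coactivator of mitochondrial and gluconeogenic genes, rose with ethanol in WT (log2 FC 0.60, edgeR adjusted *P* = 0.0417) and in Ahr HKO (1.51, adjusted *P* = 0.00182), and was lower in Ahr HKO on the control diet (−0.61, adjusted *P* = 0.0351). *Ppargc1b* rose by 1.93 with ethanol in Ahr HKO (edgeR adjusted *P* = 0.0092) and fell by 1.61 in Ahr HKO on the control diet (adjusted *P* = 0.0129). *Prox1*, a corepressor of HNF4A and LRH-1, had the opposite pattern, with a log2 FC of −1.35 (edgeR adjusted *P* = 0.0125) and 0.92 (adjusted *P* = 0.0135). The coactivator *Ncoa2* fell with ethanol in both genotypes, by 0.41 in WT (edgeR adjusted *P* = 0.0342) and by 0.55 in Ahr HKO (adjusted *P* = 0.0135).

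**Figure D5:**
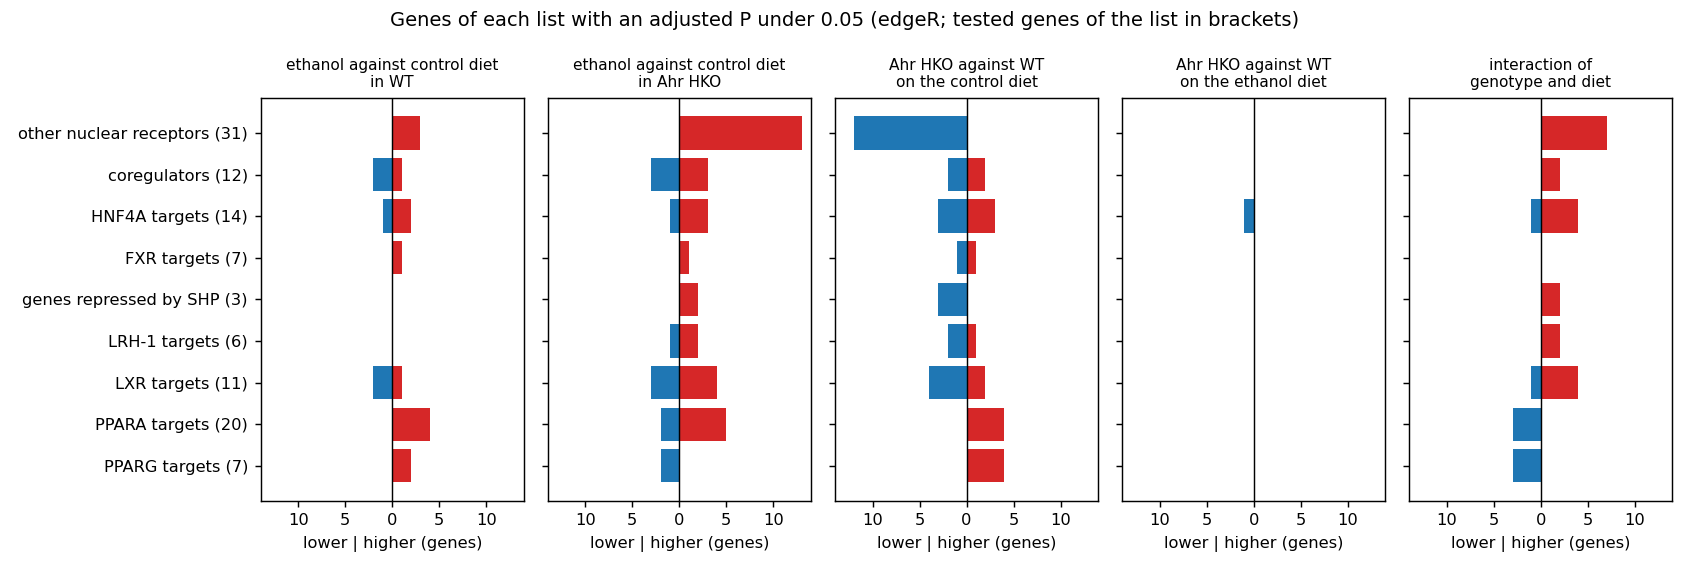
Number of genes of each list of targets, receptors and coregulators called higher (right, red) or lower (left, blue) at an edgeR adjusted *P* value under 0.05, 1 panel for each comparison and with the tested genes of the list in brackets. Other nuclear receptors are the longest bars, with 13 higher in Ahr HKO given ethanol and 12 lower between genotypes under the control diet, and among these lists the genotypes on the ethanol diet show 1 called gene.

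The genes whose log2 CPM was most like that of each receptor gene over the 12 livers were taken from 11880 genes by Pearson's *r*, as a description, since the 12 livers form 4 groups and share them. For *Rxra* these were *Ccdc25*, *Ttll4* and *Edc4* (*r* = 0.98, 0.98 and 0.97), for *Hnf4a* they were *Megf9*, *Phactr4* and *Atp2a2* (0.97, 0.96 and 0.96), and for *Pparg* they were *Itfg1*, *Maoa* and the stellate marker *Dcn* (0.96, 0.96 and 0.95). *Nr0b2* was most like *Gid4* (0.93), *Nr1h4* like *Gnpda2* (0.92), *Ppara* like *Slc9a8* (0.92) and *Esr1* like *Col20a1* (0.91). *Nr1h3* (*Impdh2*, 0.86) and *Nr5a2* (*Zmym5*, 0.80) had the lowest values.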

How the data were processed

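Poly(A) RNA of 12 livers was sequenced as stranded libraries. The submitters' processing notes name FastQC 0.11.7, Trimmomatic 0.38, HISAT2 2.1.0, Bowtie2 2.3.4.1, StringTie 1.3.4d and the build mm10. The authors deposited a read count per gene without normalization, FPKM scaled to gene length and library size, and TPM, which entered no result. Groups were taken from the labels, and *P* values measure the spread between 3 livers of each group. The replicates differed by more than counting noise, with a chi-square per degree of freedom of at least 68.0.

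Counts were filtered with filterByExpr (14038 of 24532 genes kept), scaled by TMM and tested with the quasi-likelihood method of edgeR 4.0.16 in R 4.3.3, each pair of groups on its own 6 libraries and the interaction on all 12. *P* values were adjusted by Benjamini-Hochberg over all tested genes, the threshold for a call was 0.05 with no minimum fold, and each SE is the size of the log2 FC divided by the square root of the F statistic. The script was tested on simulated counts with a single dispersion for all genes, which does not measure error rates in these livers. Alternatives were DESeq2 1.42.0, upper-quartile scaling, other filters, all libraries in a single fit, a replicate block, limma 3.58.1 on log2(FPKM + 1) or log2(FPKM + 0.1), and leaving out each liver. Promoters came from RefSeq (GRCm38.p6), in which all 9 genes were matched.

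The genes and lists (targets, other nuclear receptors, coregulators, cell type markers) were chosen with earlier results of these data known. Named genes were the 9 receptor genes, up to 4 called genes of a list and comparison with the smallest adjusted *P*, the 3 most alike of each receptor gene, *Ahr*, and markers that moved with a receptor gene. The genes repressed through SHP with ethanol in WT, *Spp1*, *Krt19*, *Cyp7a1* with ethanol in Ahr HKO and the fat-cell markers at 0 were named beyond this rule after their values were seen. Some genes that the rule selects are not reported here.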

Additional observations from a re-analysis of the deposited data

Results flagged for a closer look

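For 26 named genes, none of them among the 9 receptor genes, the diet effect differed between the genotypes in the edgeR interaction (adjusted *P* under 0.05). The values in brackets are the log2 FC with ethanol in Ahr HKO minus that in WT. Among other nuclear receptors and coregulators these were *Esrra* (1.06), *Nr1d1* (1.55), *Thrb* (1.68), *Nr6a1* (0.95), *Nr2f2* (0.80), *Ppargc1b* (2.61) and *Ppargc1a* (0.93). Among HNF4A, SHP and LRH-1 targets they were *Apoa4* (−3.38), *F11* (2.12), *Cyp8b1* (2.71), *Slco1a1* (5.58), *Slc10a1* (0.88) and *Gls2* (0.95). Among LXR targets they were *Abcg8* (1.24), *Srebf1* (2.92), *Abca1* (−0.94), *Lpcat3* (0.66) and *Abcg5* (0.63), and among PPARA and PPARG targets *Plin2* (−1.56), *Fgf21* (−4.55), *Pdk4* (−1.49), *Fabp4* (−2.45), *Cidec* (−3.48) and *Cd36* (−1.48). The cholangiocyte marker *Epcam* was at −2.36. Markers not named here were called for the interaction as well. Below 0 were 4 of 8 Kupffer cell and leukocyte markers (median of the 8 −1.43), 1 of 7 stellate and 1 of 6 endothelial markers. Above 0 were 2 of 8 hepatocyte markers. Of all genes, 22.3% were called for the interaction. *Ahr* itself was at −1.23, in libraries whose *Ahr* counts do not separate exon 2.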

How the results depend on the processing

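Of 720 values of receptor genes under the alternatives, 625 kept their direction and side of the threshold, and the cause of the other changes was not tested. The number of receptor genes called was 1 for ethanol in WT, 4 for ethanol in Ahr HKO, 3 for the genotypes on the control diet, 1 for the genotypes on the ethanol diet and 0 for the interaction. The other settings gave 2 to 4 on the control diet. With DESeq2 it was 3 for the genotypes on the ethanol diet and 1 for the interaction, with no low-count filter 2 for ethanol in Ahr HKO, and with all 12 libraries in a single fit 2 for the genotypes on the ethanol diet. With limma on quantile-normalized log2(FPKM + 1) it was 0 for the genotypes on the ethanol diet and 1 for the interaction, on log2(FPKM + 0.1) 1 for the interaction, and without quantile normalization 2 for ethanol in WT and 3 for the interaction. Under that last scaling the median log2 FC of all genes was 0.10 for ethanol in WT. It was −0.13 between the genotypes on the ethanol diet and −0.14 for the interaction. The edgeR fits used for the calls gave 0.03, −0.01 and −0.03. Of the called genes, 1498 of 1883 were higher in WT with ethanol (679 of 1329 in those edgeR fits). Between the genotypes on the ethanol diet 71 of 382 were higher (100 of 155), and in the interaction 806 of 3446 (1576 of 3137). With a replicate block the number of receptor genes called was 1 for ethanol in Ahr HKO and 0 for the genotypes on the ethanol diet. *Nr5a2* with ethanol in Ahr HKO then reversed to −0.0043. Same-numbered livers deviated with a correlation of −0.155 to 0.294, above 0.1 in 2 of 12 pairs, and 2 of the libraries correlated best with their own number. These were livers 1 and 2 between the genotypes on the ethanol diet (0.294 and 0.207). With 3 livers in each group this cannot tell whether same-numbered livers shared a litter, cage or batch. Leaving out each liver gave 1 to 2 called receptor genes for ethanol in WT, 0 to 3 for ethanol in Ahr HKO, 1 to 3 for the genotypes on the control diet, 0 for the genotypes on the ethanol diet and 0 to 1 for the interaction. Log2 FCs of uncalled genes reversed under limma, for *Nr1h3* in WT with ethanol (0.02 without quantile normalization), between genotypes on the ethanol diet (−0.02 on either pseudocount, −0.15 without) and in the interaction (−0.02 on either pseudocount, −0.18 without). The same held for *Ppara* in the interaction (−0.03 on either pseudocount, −0.21 without), for *Nr0b2* in the interaction (−0.08 without) and for *Nr5a2* in Ahr HKO with ethanol (−0.07 without), and upper-quartile scaling gave *Nr1h3* −0.04 on the control diet. Leaving out livers took *Esr1* from −0.08 to 0.09 with ethanol in WT, from −0.34 to 0.11 in Ahr HKO and from −0.36 to 0.08 in the interaction, and *Nr5a2* from −0.23 to 0.18 in Ahr HKO with ethanol and from −0.40 to 0.19 on the control diet. It took *Nr1h3* from −0.04 to 0.06 and *Nr1h4* from −0.20 to 0.12 on the control diet, and *Nr0b2* from −0.69 to 0.66 and *Ppara* from −0.09 to 0.27 in the interaction. The all-gene count for ethanol in WT was 2335 with DESeq2, 517 with the block and 367 to 1026 without a liver, and for the genotypes on the ethanol diet 1511 with DESeq2, 575 with all libraries in a single fit, 245 with the block, 92 with limma on log2(FPKM + 1) and 7 to 189 without a liver. Without a liver it was 2588 to 3792 for ethanol in Ahr HKO (4322 with all) and 2630 to 3748 for the genotypes on the control diet (4161 with all). Of 1440 counts of list genes, 212 moved by over 1.5 times. Between CPM and FPKM, 8 group means of receptor genes relative to WT+con moved by at least the SD of the group, and 19 did not. The lowest count behind a receptor gene value was 236 reads, of *Pparg*.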

Other observations

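The reads behind 1 FPKM of *Pparg*, relative to the single-transcript gene *Nr0b2* of the same library, ranged from 1.45 to 1.64, while those of *Ppara* ranged from 5.78 to 5.80 and those of *Nr1h4* from 1.59 to 1.61. For *Pparg* the values were 1.63, 1.45 and 1.60 in WT+con, 1.49, 1.51 and 1.5 in WT+EtOH, 1.61, 1.64 and 1.63 in Ahr HKO+con, and 1.45, 1.59 and 1.58 in Ahr HKO+EtOH. *Pparg* has 4 transcripts listed with the authors' expression values, and its levels by isoform were not analysed here.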
